A study of Mus musculus with 10 samples.

Results

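Cyclic nucleotide phosphodiesterases of families 3, 4, 7 and 8 were examined in livers without the glucagon receptor Gcgr (KO) and in wild-type livers (WT) of mice. The members were the 10 genes Pde3a, Pde3b, Pde4a, Pde4b, Pde4c, Pde4d, Pde7a, Pde7b, Pde8a and Pde8b, of 27670 genes on the array. They were chosen by name, with earlier results of these data known, and were read by 24 of the 41174 probes. The KO group held 5 livers with the genotype label GCGR ko/ko, from 3 females (KO 2, KO 3 and KO 4) and 2 males (KO 1 and KO 5). The WT group held 5 livers with the label wt/wt, from 2 females (WT 3 and WT 4) and 3 males (WT 1, WT 2 and WT 5). Strain, age, feeding state and the design of the deleted allele are not given in the sources used here. Each value is the log2 ratio of liver RNA, labelled with Cy5, over a pooled mouse reference RNA, labelled with Cy3, on a 2-colour Agilent array. Since the dyes were never swapped, the level of a gene against the reference is a description, whereas a difference between livers compares Cy5-labelled RNA on both sides.

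Glucagon acts on hepatocytes through a receptor coupled to the stimulatory G protein, which turns on adenylyl cyclases and so raises cyclic AMP, the messenger that activates protein kinase A and the transcription factor CREB during fasting. Phosphodiesterases end this signal by breaking the messenger down. Families 4, 7 and 8 act on cyclic AMP, while family 3 acts on both cyclic AMP and cyclic GMP. Several PDE4 genes are themselves known to be switched on by cyclic AMP, which makes them feedback brakes in other cell types.

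Gcgr log2 ratios were 0.28 to 0.36 in the KO livers and 7.74 to 8.14 in the WT livers, so each liver matched its genotype label. Across all 18921 genes tested, 1129 (5.97%) differed between KO and WT livers at a limma adjusted p of at most 0.05, 547 of them (2.89%) higher and 582 (3.08%) lower in KO. The median difference over all genes was -0.0028. The arrays lay on 4 slides. Slide 1 held KO 1, KO 2, WT 1 and WT 2, slide 2 held KO 3 and KO 4, slide 3 held KO 5, WT 3 and WT 4, and slide 4 held WT 5. The arrays of slides 1 and 2 were brighter, with a median net Cy5 of 108 to 130 per array, than those of slides 3 and 4, with 56.7 to 76.1. The 4 tested hepatocyte markers, among them albumin and transthyretin, averaged log2 ratios of 6.95 to 7.09 in KO livers and 6.76 to 7.30 in WT livers.

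Of the 10 members, 7 were measured well above background on at least 4 of the 10 arrays and were tested. Pde4b was lower in KO livers, Pde4a was slightly higher, and Pde3b, Pde4c, Pde4d, Pde7a and Pde8a did not pass the test. The median difference of the 7 was 0.05. These counts of 1 higher and 1 lower among 7 genes stand beside the 2.89% and 3.08% of all genes, and nothing is read from so small a count.

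Pde4b, a cyclic AMP-specific enzyme of the PDE4 family, was 3.25-fold lower in KO livers. Its brightest probe, A_51_P512340, lies on chromosome 4 at 101981987 to 101982045 in the mm7 coordinates of the array files. An mm7 annotation, which would place it in an exon or UTR, was not used here. The log2 ratios were -1.69, -0.84, -0.55, -0.66 and -1.50 in KO livers 1 to 5, against 0.38, 0.26, 0.78, 0.57 and 0.69 in WT livers 1 to 5. Every KO liver was below the reference RNA and every WT liver above it, so the genotypes did not overlap. The KO livers with the lowest values were the 2 males, KO 1 and KO 5. The KO mean was -1.05 ± 0.51 and the WT mean 0.54 ± 0.21 (SD, n = 5 each). The fitted difference, which adjusts for sex, was -1.70 (SE 0.14, 95% interval -2.01 to -1.39, limma adjusted p = 5.94e-05). Net Cy5 signal of this probe ran between 210 and 688 in KO livers and between 867 and 1414 in WT livers. Pde4b ranked 24 by p among the genes tested, and 0.18% of all genes differed by at least as much. Because whole liver was measured, fewer cells of a type and less RNA per cell cannot be told apart.

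Pde4b was lower in KO livers within both slides that held the 2 genotypes. The plain Pde4b difference was -1.59 within slide 1 and -2.17 within slide 3, and neither slide was balanced for sex. On slide 1 both WT livers and KO 1 were male and KO 2 was female. On slide 3 the lone KO liver was male and both WT livers female. Each of these values rests on 3 or 4 livers and was not tested.

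The other Pde4b probes gave the same direction where they could be read. Probe A_52_P370274, designed on a cDNA clone and located at 101947595 to 101947654, read -1.33, -0.77, -0.11, -0.49 and -1.20 in KO livers 1 to 5, against 1.37, 0.42, 1.04, 1.62 and 0.26 in WT livers 1 to 5. Here too all KO livers were below the reference and all WT livers above it, and KO 1 and KO 5 were the lowest. The fitted difference was -1.87 (SE 0.21, adjusted p over all probes 0.000482), or 3.64-fold.

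Probe A_52_P423247, at 101981444 to 101981503, read -1.91, -1.09, -0.91, -0.82 and -1.74 in KO livers 1 to 5, against 0.07, -0.04, 0.53, 0.02 and 0.21 in WT livers 1 to 5. The groups again did not overlap, although 1 KO liver was not well above background. The fitted difference was -1.56 (SE 0.15, adjusted p over all probes 0.000167), or 2.94-fold. The fourth probe, A_52_P149801, lies at 101631659 to 101631718, upstream of the others, and was well above background on 0 of the 10 arrays. It was not tested, so nothing can be said about transcripts that only it would read. Of the 11 member probes tested, 4 passed, against 5.59% of all probes, and 3 of these were the Pde4b probes, lower in KO as were 2.95% of all probes. The 3 probes share a gene and are not independent.

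**Figure D1:**
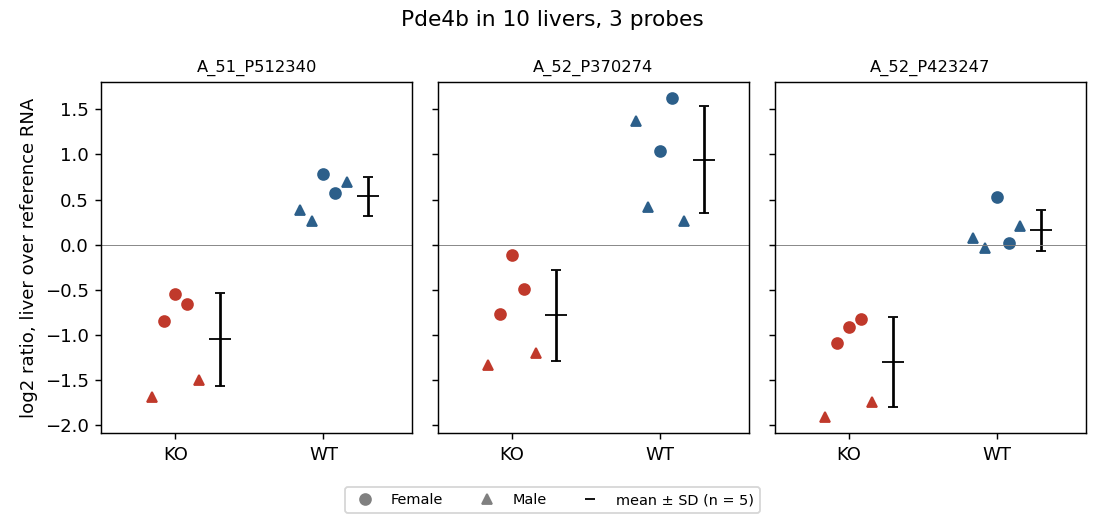
Log2 ratios of liver over reference RNA for the 3 Pde4b probes that were tested, in KO livers (left) and WT livers (right), with circles for females, triangles for males, and bars for the mean ± SD of 5 livers. On each probe all KO livers lie below all WT livers, and the 2 male KO livers lie lowest.

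The set of promoter windows used here held 4 transcription starts for Pde4b, spread over 168288 bases of chromosome 4. These need not be all of its starts, and other promoters were not searched. The promoter windows of 300 bases, 250 before and 50 after a start (build GRCm38.p6), were searched for the motif that CREB binds, TGACGTCA, and for its shorter core TGACG, on both strands, the shorter being contained in the longer. The longer motif was in 0 of the 16 member windows and in 1.79% of the 32851 windows of all genes. The core was in 4 of the 16 member windows, against 20.8% of all windows. Windows were listed for 7 of the 10 members. In Pde4b the core was in 1 of 4 windows, 34 bases before the start in chr4:102421305-102421604 (plus strand). In Pde4a it was in 1 of 3 windows, 50 bases before the start in chr9:21183851-21184150 (plus strand). The 250 bases before these 2 starts are shown because their windows hold the core in the 2 members that passed the test. The other windows of both genes lacked the core and are not shown. The core is in capitals, read here on the minus strand:
Pde4b: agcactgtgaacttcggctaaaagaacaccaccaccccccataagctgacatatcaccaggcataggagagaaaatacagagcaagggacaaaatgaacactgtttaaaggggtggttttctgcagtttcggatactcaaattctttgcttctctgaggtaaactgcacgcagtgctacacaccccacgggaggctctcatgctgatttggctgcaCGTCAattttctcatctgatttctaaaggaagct
Pde4a: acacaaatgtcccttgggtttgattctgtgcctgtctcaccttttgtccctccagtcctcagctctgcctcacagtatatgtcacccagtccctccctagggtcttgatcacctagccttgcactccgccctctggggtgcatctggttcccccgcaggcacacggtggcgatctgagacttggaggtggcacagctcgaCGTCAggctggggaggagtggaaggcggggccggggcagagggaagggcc
These matches are letters in a window and were not tested as binding sites, and the arrays do not tell which start was used.

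Pde4a, another cyclic AMP-specific enzyme, was 1.34-fold higher in KO livers on its brightest probe. That probe, A_51_P313855 (chromosome 9, 21088068 to 21088127 in mm7), read -1.61, -1.53, -1.29, -1.30 and -1.53 in KO livers 1 to 5, against -1.73, -1.66, -2.11, -1.88 and -1.99 in WT livers 1 to 5. The groups did not overlap, though KO 1 and WT 2 were only narrowly apart. Over all genes 6.04% had non-overlapping genotypes, as did Pde4a and Pde4b among the 7 tested members. The means were -1.45 ± 0.15 in KO and -1.87 ± 0.18 in WT livers (SD, n = 5 each), a fitted difference of 0.42 (SE 0.10, 95% interval 0.19 to 0.65, limma adjusted p = 0.0379). By sex, the fitted Pde4a difference was 0.62 in females (limma adjusted p = 0.0247) and 0.23 in males (limma adjusted p = 0.4). The Pde4a interaction of 0.39 did not pass (limma adjusted p = 0.405).

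The call for Pde4a was not stable. A second probe, A_52_P600760 (21068180 to 21068239), read 1.12, 0.52, 0.49, 0.38 and 0.92 in KO livers 1 to 5, against 0.82, 0.94, 0.56, 0.26 and 0.78 in WT livers 1 to 5. These groups overlapped, with a fitted difference of 0.11 (SE 0.08, adjusted p over all probes 0.49). The call on the first probe was also lost when any 1 liver other than WT 1 or WT 2 was left out (adjusted p 0.0518 to 0.123). It was lost with median centring of the arrays (adjusted p = 0.187), with the scanner's own log ratio (0.055), with outlier spots removed later (0.18), and with slide as a fixed block, where the difference was 0.25 (0.142). The mean of both probes differed by 0.27 (adjusted p = 0.0368). Within slide 1 the plain difference on the first probe was 0.13 and within slide 3 it was 0.46, neither slide being balanced for sex. Set side by side over all 22 alternative settings, Pde4b passed in each and Pde4a in 9.

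**Figure D2:**
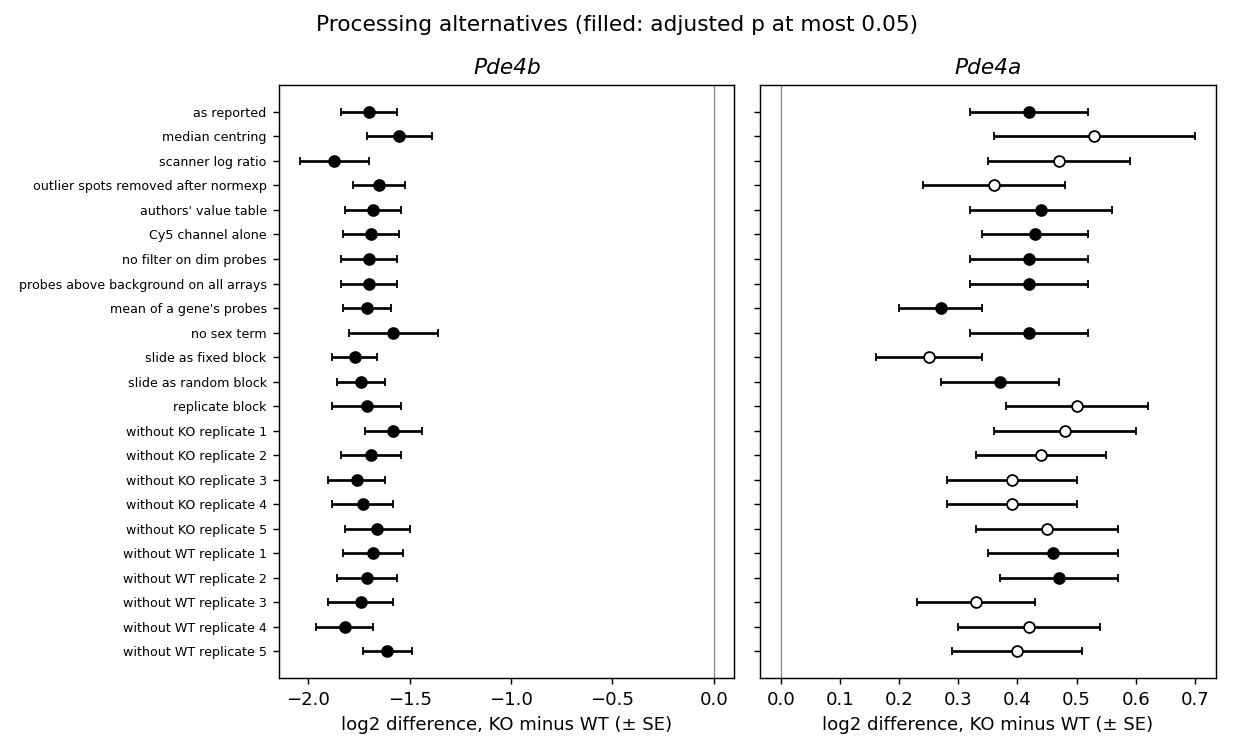
KO minus WT log2 differences with standard errors under the reported and 22 alternative settings, for Pde4b (left) and Pde4a (right), filled where the adjusted p is at most 0.05. Pde4b stays between -1.87 and -1.55 and passes in all 22, while Pde4a stays between 0.25 and 0.53 and passes in 9.

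The 2 other PDE4 genes did not pass. Pde4c, on probe A_52_P573543, averaged 1.76 ± 0.15 in KO and 1.66 ± 0.20 in WT livers (SD, n = 5 each), a difference of 0.05 (95% interval -0.11 to 0.20, adjusted p = 0.773). Pde4d, whose probe A_52_P589745 was well above background in 3 KO and 2 WT livers, averaged -0.02 ± 0.08 in KO and -0.15 ± 0.20 in WT livers (SD, n = 5 each). Its difference was 0.09 (95% interval -0.10 to 0.28, adjusted p = 0.611). With 5 livers a group, Pde4c and Pde4d differences within these intervals are not excluded, and the Pde4d value rests on signals near background.

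Pde3b, the enzyme by which insulin lowers cyclic AMP in fat and liver, did not pass. Its ratios were 1.50, 1.03, 1.34, 1.45 and 1.57 in KO livers 1 to 5, against 1.58, 1.47, 1.28, 1.57 and 0.88 in WT livers 1 to 5. The groups overlapped broadly. The difference was 0.04, with the widest 95% interval of the 7 members, -0.28 to 0.36 (adjusted p = 0.92).

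Pde7a and Pde8a, both high-affinity cyclic AMP enzymes, also did not pass. Pde7a ratios ran between -2.11 and -1.84 in KO livers and between -2.12 and -1.90 in WT livers, a difference of 0.04 (95% interval -0.13 to 0.21, adjusted p = 0.818). Its second probe gave 0.02 (adjusted p over all probes 0.938). Pde8a averaged 1.60 ± 0.11 in KO and 1.48 ± 0.03 in WT livers (SD, n = 5 each), and its difference of 0.13 (95% interval -0.03 to 0.28) had an adjusted p of 0.335. KO 4 and KO 5 were the highest for Pde8a, while KO 2 lay among the WT livers.

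**Figure D3:**
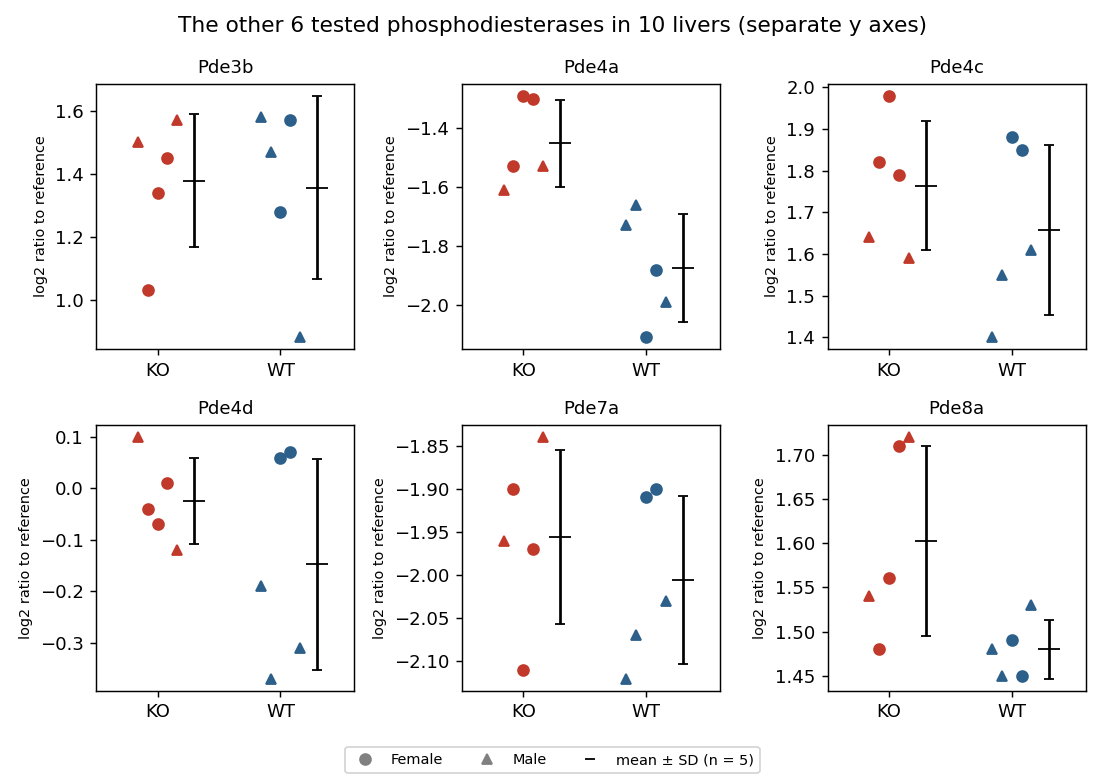
Log2 ratios of liver over reference RNA for the 6 tested members other than Pde4b, each with its own y axis, in KO livers (left) and WT livers (right), with symbols and bars as for Pde4b. The KO and WT livers overlap in all panels but that of Pde4a.

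Pde3a, Pde7b and Pde8b were not tested, because none of their probes was well above background on enough arrays. The 3 Pde3a probes passed that mark on 2, 1 and 0 of 10 arrays, the 3 Pde7b probes on 0, and the 2 Pde8b probes on 1 and 0. No probe of any member was saturated.

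Against the reference RNA, WT livers held more Pde4c (3.15-fold), Pde8a (2.79-fold), Pde3b (2.56-fold) and, on its brightest probe, Pde4b (1.45-fold). The Pde4b probes A_52_P370274 and A_52_P423247 gave 1.92-fold and 1.11-fold, the latter with WT 2 slightly below the reference (-0.04). WT livers held less Pde7a (4.02-fold, and 2.51-fold on its second probe). They also held less Pde4a on its brightest probe (3.67-fold), while the second Pde4a probe was 1.59-fold above the reference. Pde4d ratios in WT livers lay on both sides of the reference, near background. Different probes are not ranked by level here, and these ratios carry no dye swap.

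Sex was also compared, since both sexes were in each group. Pde4b and Pde4c were higher in females than in males, while the other 5 tested members did not pass. Pde4b was 1.48-fold higher in females (log2 difference 0.57, SE 0.14, adjusted p = 0.0225). Within genotypes the female minus male difference was 0.91 in KO livers (adjusted p = 0.00375) and 0.23 in WT livers (adjusted p = 0.356). Pde4c was 1.23-fold higher in females (0.30, SE 0.07, adjusted p = 0.0177). The Pde4b call was lost without KO 1, KO 4 or KO 5, and the Pde4c call without WT 3 (adjusted p = 0.0552) and with the scanner's log ratio (0.0813). Over all genes 11.6% passed for sex, 5.01% higher in females, so 2 of 7 members is again a small count.

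The Pde4b fall was larger in males than in females as fitted, but the difference between them did not pass. On the first probe the KO livers averaged -0.68 in 3 females and -1.59 in 2 males, against WT means of 0.68 in 2 females and 0.45 in 3 males. The fitted KO minus WT difference was -1.36 in females (SE 0.14, adjusted p = 0.000852) and -2.04 in males (SE 0.14, adjusted p = 7.14e-05). The interaction was 0.68 (SE 0.20, 95% interval 0.23 to 1.12), with a limma p of 0.00656 before and 0.249 after adjustment over all genes. Probe A_52_P423247 gave an interaction of 0.69 (limma adjusted p = 0.271) and probe A_52_P370274 one of 0.16, which also did not pass. Among the members, 0 passed for the interaction after limma's adjustment and 2 had an unadjusted p of at most 0.05, against 6 genes (0.0317%) and 2372 genes over all.

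**Figure D4:**
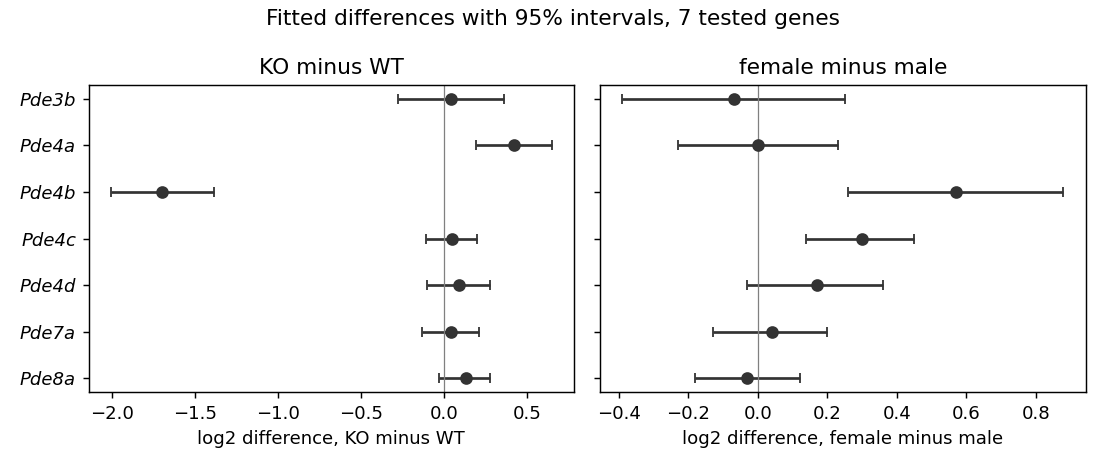
Fitted log2 differences with 95% intervals for the 7 tested members, KO minus WT and female minus male. Pde4b stands at -1.70 for genotype and 0.57 for sex, and Pde4a at 0.42 for genotype.

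Other genes of the cyclic AMP pathway were counted for comparison, each list being described by its calls and median. Of 11 other tested genes named as phosphodiesterases or their subunits, 0 passed in limma (1 had an unadjusted p of at most 0.05), with a median of -0.02. Over all 18921 genes tested, 3950 had an unadjusted limma p that low. Of 13 cyclase and G protein genes tested, 2 were higher and 0 lower, against 2.89% and 3.08% of all genes, with a median of -0.02. They were Adcy6, an adenylyl cyclase (0.38, SE 0.09, adjusted p = 0.038), and Gnas, the stimulatory G protein subunit (0.28, SE 0.07, adjusted p = 0.038). Of the 5 Gnas probes, 2 passed. The Adcy6 call was lost without any 1 liver other than KO 3 or KO 5, and the Gnas call without any 1 liver other than KO 3 or WT 5. Over all 22 alternative settings the calls were lost in 15 and 16, and the mean of the Gnas probes gave 0.14.

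The list of protein kinase A subunits, its inhibitors and the Epac genes gave 0 calls of 11 tested (limma; 1 at an unadjusted p of at most 0.05, median 0.07), and the anchoring proteins 0 of 16 (5 at that p, median 0.10). Of 15 genes that respond to cyclic AMP or CREB or, as Creb1, Crtc2 and Atf1 do, belong to the CREB machinery, 3 were lower and 0 higher, with a median of -0.08. The shares over all genes were 3.08% lower and 2.89% higher. At an unadjusted limma p of at most 0.05 stood 7 of the 15, beside 3950 of all 18921 genes. Tat, a tyrosine aminotransferase, averaged 5.76 ± 0.23 in KO and 6.41 ± 0.09 in WT livers (SD, n = 5 each), a difference of -0.63 (limma adjusted p = 0.00585). Ppargc1a, a coactivator of fasting genes, differed by -0.50 on its brightest probe (adjusted p = 0.0164) and by -1.15 on its other probe, and G6pc, the glucose-6-phosphatase that releases glucose, by -0.37 (adjusted p = 0.037). The G6pc call was lost without any 1 liver other than KO 5, WT 2 or WT 4 (adjusted p 0.0566 to 0.123), and the Ppargc1a call without WT 3 (0.0636). Over all 22 alternative settings, Tat lost its call in 2, Ppargc1a in 6 and G6pc in 11. The sizes also moved with the processing, to -1.52 for Tat and -0.71 for G6pc with the Cy5 channel alone, and to -0.82 for Ppargc1a with the mean of its probes.

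Markers of other liver cells were read because PDE4B is abundant in leukocytes. Of 8 Kupffer cell, 4 neutrophil and 7 T and NK cell markers tested, 0 passed in limma (1, 1 and 0 at an unadjusted p of at most 0.05). Over all 18921 genes, 3950 had an unadjusted limma p that low. The mean Kupffer marker ratio was 3.97 to 4.70 in KO and 3.61 to 4.60 in WT livers, and the mean neutrophil marker ratio 0.48 to 1.89 in KO and 0.26 to 0.78 in WT livers. Of all genes tested, 2.89% were higher and 3.08% lower in KO livers. Of 4 B cell markers, Cd79b was higher in KO livers (0.48, adjusted p = 0.0323), and of 6 endothelial markers, 3 were higher, led by Lyve1 (1.47, adjusted p = 0.00674). Over the 22 alternative settings Lyve1 lost its call in 1, and the other 2, Oit3 and Pecam1, in 15 and 18. The Cd79b call was lost without KO 1, KO 2, KO 4, WT 1, WT 2 or WT 3. The mean endothelial marker ratio was 3.78 to 4.03 in KO and 3.11 to 3.67 in WT livers. This mean includes Lyve1, whose difference was the largest of the 6. Taken singly, Lyve1 and Pecam1 did not overlap between genotypes, whereas Stab2, Clec4g, Kdr and Oit3 did. Over all genes 6.04% had non-overlapping genotypes. Of the 6 stellate, 5 bile duct and 3 adipocyte markers tested, 0 passed in limma (0, 1 and 1 at an unadjusted p of at most 0.05). The mean bile duct marker ratio nevertheless did not overlap, at -3.21 to -2.86 in KO and -3.51 to -3.24 in WT livers. The part of these cells in the Pde4b difference was not tested.

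Pde4b was then set beside all other genes by its pattern over the 10 livers, after each gene's ratios were centred on their own mean. The measure was the root mean square difference in log2 units, whose median over 18853 genes was 0.88. A gene that did not vary at all would score 0.87, the root mean square deviation of Pde4b from its own mean. The 5 nearest genes were Sds (0.18), 1810046K07Rik (0.27), Gls2 (0.30), BC034076 (0.30) and Slc43a1 (0.34). Sds is serine dehydratase and Gls2 the liver glutaminase, both of amino acid breakdown, and Slc43a1 is an amino acid carrier. All 5 were lower in KO livers, by construction of the measure. KO minus WT was -1.44 for Sds, -1.59 for Gls2, -1.38 for BC034076 and -1.59 for Slc43a1. Of the 5 KO livers, 1 had 1810046K07Rik well above background, so the size of its difference and its place in this order are uncertain. With the scanner's log ratio the differences were -0.77 for Sds, -2.59 for Slc43a1 and -4.66 for 1810046K07Rik, against -1.87 for Pde4b. The order of likeness was not recomputed under other settings. This likeness is a description over 10 livers that share the arrays and the genotype split. Because the 5 genes were picked by likeness over these same livers, a shared order within the KO livers is also favoured by construction. In Sds the lowest livers were KO 1 (4.68) and KO 5 (5.07), as in Pde4b. The same livers were lowest in Gls2 (3.88 and 3.78) and in 1810046K07Rik (0.12 and -0.07). In BC034076 the lowest were KO 1 (-1.94) and KO 2 (-1.72), and in Slc43a1 KO 4 (-0.38) and KO 1 (-0.36).

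**Figure D5:**
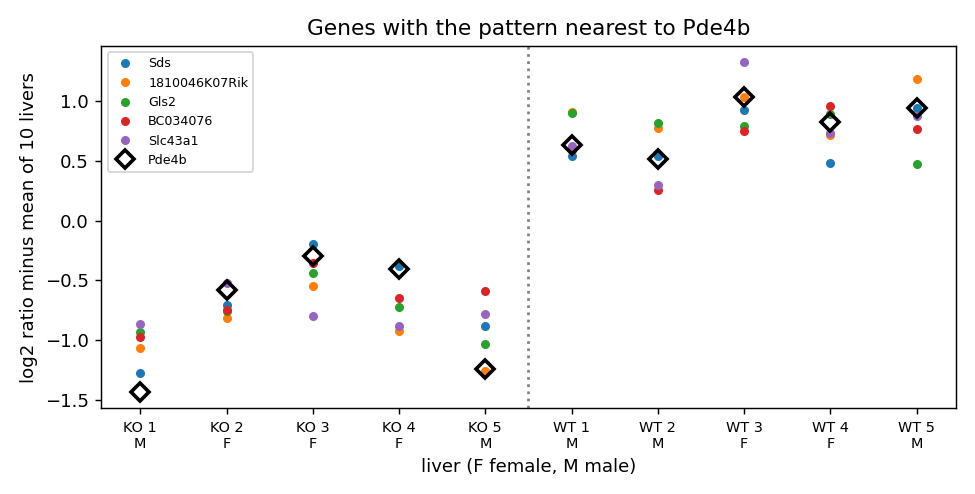
Log2 ratios minus each gene's mean over 10 livers, for Pde4b (open diamonds) and the 5 genes with the nearest pattern, in KO livers (left of the dotted line) and WT livers (right). All 6 genes lie below their own mean in every KO liver and above it in every WT liver.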

How the data were processed

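The livers were hybridised to 2-colour Agilent arrays (design 014868). Feature Extraction software made the deposited scanner files (version 10.7 in the submitters' processing notes, 10.7.3.1 in the headers). These hold mean and local background intensity per spot, per the file headers, and a log10 ratio of Cy5 over Cy3 made by the software and deposited with them. In the series table the authors' values are log2 ratios, as comparison with each array showed (slopes of 0.998 to 1 against the log2 ratios used here, correlations 0.9994 to 0.9996, medians 0.00776 to 0.023). How they were normalised is unknown here.

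Between 169 and 291 spots per array carried an outlier flag and were dropped before normexp (offset 50) and a loess per array, in which control spots had weight 0. Flags for background outliers were added after the normexp fit of the WT 5 array was seen to be distorted without them. A probe was kept if it was well above background in the liver channel on 4 or more of the 10 arrays (26933 probes). Each of the 18921 genes took its brightest kept probe, and for 67 genes with a missing value the fit dropped that liver. An accession named 22951 probes in RefSeq GRCm38.p6, a symbol 6659 and a synonym 3109, while 8455 have the array's own name.

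limma 3.58.1 in R 4.3.3 was fitted with genotype and sex, then with their interaction, with Benjamini-Hochberg adjustment over all genes and a threshold of 0.05, and was tested on simulated data. The number of arrays limits precision. Each liver was 1 replicate, since the series counts 5 mice per genotype. The members and lists were chosen with earlier results of these data known. Named genes are the members, pathway genes past the threshold and the 5 genes nearest to Pde4b. Marker genes were named after their values were seen. Alternatives covered normalisation, background, outlier order, the authors' table, Cy5 alone, dim probes, probe choice, sex, slide, replicate numbers and single livers.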

Additional observations from a re-analysis of the deposited data

How the results depend on the processing

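Pde4b passed in all 22 alternative settings (-1.87 to -1.55, adjusted p 9.44e-06 to 0.00568), and Pde4a in 9. Over the fits that leave out 1 liver, 596 to 1183 genes passed for genotype, against 1129 with all livers, with the lowest counts without WT 3 (596), KO 1 (600) and KO 4 (669). The same fits gave 1 to 2 members, 3 to 4 member probes, 1 to 7 genes of the pathway lists (5 with all livers) and, for sex, 1 to 2 members. The Pde4b call for sex was lost without KO 1 (adjusted p 0.0808), KO 4 (0.0516) or KO 5 (0.0603).

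Centring each array on its median instead of loess left 281 genes (203 higher and 78 lower, or 72.2% higher, against 48.4% as reported), 1 member and 1 pathway gene. Removing outlier spots after normexp left 339 genes (199 higher and 140 lower, 58.7% higher), 1 member and 0 pathway genes in limma (15 at an unadjusted p of at most 0.05). In that setting 2666 of all genes had an unadjusted limma p that low. Without the sex term 620 genes and 2 pathway genes passed. Slide as a fixed block left 1 member and 3 pathway genes, and the scanner's log ratio 1 member for genotype and 1 for sex. The cause was not tested.

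With the replicate number as a block, 306 genes, 1 member and 0 pathway genes passed in limma (17 pathway genes at an unadjusted p of at most 0.05). Over all genes 2865 had an unadjusted limma p that low. Pde4b kept its call, while Pde4a (adjusted p 0.101), Tat (0.0618), Ppargc1a (0.0953), G6pc (0.0706), Adcy6 (0.153) and Gnas (0.199) did not. The numbers were not taken to pair the livers, since the labels name no shared litter or batch and not every pair deviated together. The correlations of same-numbered livers were 0.54, -0.43, 0.44, 0.51 and 0.23, over 0.1 in 4 of 5 pairs, and 4 of 10 livers correlated best with their own number. Signal over background limited the set, and a change in Pde3a, Pde7b or Pde8b could not be measured.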
